A study of Mus musculus with 6 samples.

Results

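Semaphorins, plexins and neuropilins were compared between B16-F1 and D5.1G4, 2 mouse melanoma lines that the series title sets apart by how readily they form tumours. The members are every gene on the array whose accession maps to a semaphorin of classes 3 to 7, a plexin of subfamilies A to D, or neuropilin 1 or 2: 31 genes, read by 39 probes, of 20659 named genes and 39429 probes in all. They comprise 20 semaphorins, 9 plexins and 2 neuropilins. Both lines were untreated and grown in RPMI-1640 with 10% serum for 24 h after 1000000 cells were seeded, reaching a confluence between 75% and 95%. B16-F1 is a line of the B16 melanoma of the C57BL/6 mouse, and the labels give no origin for D5.1G4. Both were measured in culture and not as tumours in a host. Each line was hybridised to 3 one-colour Agilent arrays. The labels do not say whether replicates were separate cultures, so a p-value here weighs a difference against the spread among these arrays alone, and that spread may be technical.

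Semaphorins are secreted or membrane-bound guidance cues first known for turning growing axons away, and they also act on blood vessels, immune cells and tumour cells. Plexins are their signalling receptors: the intracellular part of a plexin switches off small GTPases of the Ras and Rap families and weakens adhesion. Most secreted class 3 semaphorins cannot bind a plexin by themselves and need a neuropilin, which also binds vascular endothelial growth factors, whereas classes 4 to 7 mostly bind plexins directly. In the melanocyte lineage, plexin C1 and plexin B1 are known receptors of semaphorin 7A and semaphorin 4D, and class 3 semaphorins steer the neural crest cells from which melanocytes arise.

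Levels are log2 processed signals minus the 75th percentile of the array's signals, so 0 is that percentile. Of an array's spots, 53.4% to 62.0% were well above background, the most on B16-F1 replicates 2 and 3 (62.0% and 61.7%), which shared a scan with no D5.1G4 array. B16-F1 replicate 1 and D5.1G4 replicates 2 and 3 shared another scan, and D5.1G4 replicate 1 had a scan of its own. All 9 melanocyte markers examined were detected in both lines, and 1 of them, Slc45a2, was called higher in B16-F1. Of 8 endothelial markers 3 were detected in each line, with Cdh5 and Tek on 0 arrays. Of 9 macrophage and leukocyte markers 8 were detected in B16-F1 and 4 in D5.1G4, with Lyz2 on 0 arrays and Cd14 called higher (on 0 D5.1G4 arrays, at least 1.35-fold, adjusted p = 0.0303), and the log2 of their summed signal was 0.12 to 1.23 in B16-F1 and -0.002 to 0.95 in D5.1G4. Of 6 fibroblast markers 1 (Postn) was detected in each line, with Pdgfra and Dcn on 0 arrays, and it was lower in B16-F1. Of 4 keratinocyte markers 2 were detected in each line, and of 6 neuron and glia markers 4 in B16-F1 and 3 in D5.1G4, with Rbfox3 and Syt1 on 0 arrays, Gfap called higher (on 0 D5.1G4 arrays, at least 1.37-fold, adjusted p = 0.00305) and Mbp lower (-1.17, adjusted p = 0.00765). Cd14 and Gfap entered the test through the 3 B16-F1 arrays, and the bounds of both are under the 2-fold that a call needs. The part of transcripts of these other cell types in the results was not tested.

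A gene counts as detected in a line if 2 or 3 of the line's arrays had it well above background. By this rule 24 of the 31 genes were detected in B16-F1 and 23 in D5.1G4, with 21 in both. The ligand genes Sema3e, Sema4g and Sema6b were detected in B16-F1 and not in D5.1G4. The plexin genes Plxna2 and Plxna4 were detected in D5.1G4 and not in B16-F1. The levels of Sema3e and Plxna2 nevertheless overlapped between the lines. The lowest signal well above background was -5.50, -5.73 and -6.17 on the B16-F1 arrays and -5.10, -5.09 and -5.21 on the D5.1G4 arrays. Sema3a, Sema3d, Sema3g, Sema5a and Sema5b, all ligands, were detected in neither line. The 3 ligands that B16-F1 alone passed were above background on the B16-F1 array of the shared scan as well. In bulk RNA, fewer cells with a transcript and less transcript per cell cannot be told apart.

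**Figure D1:**
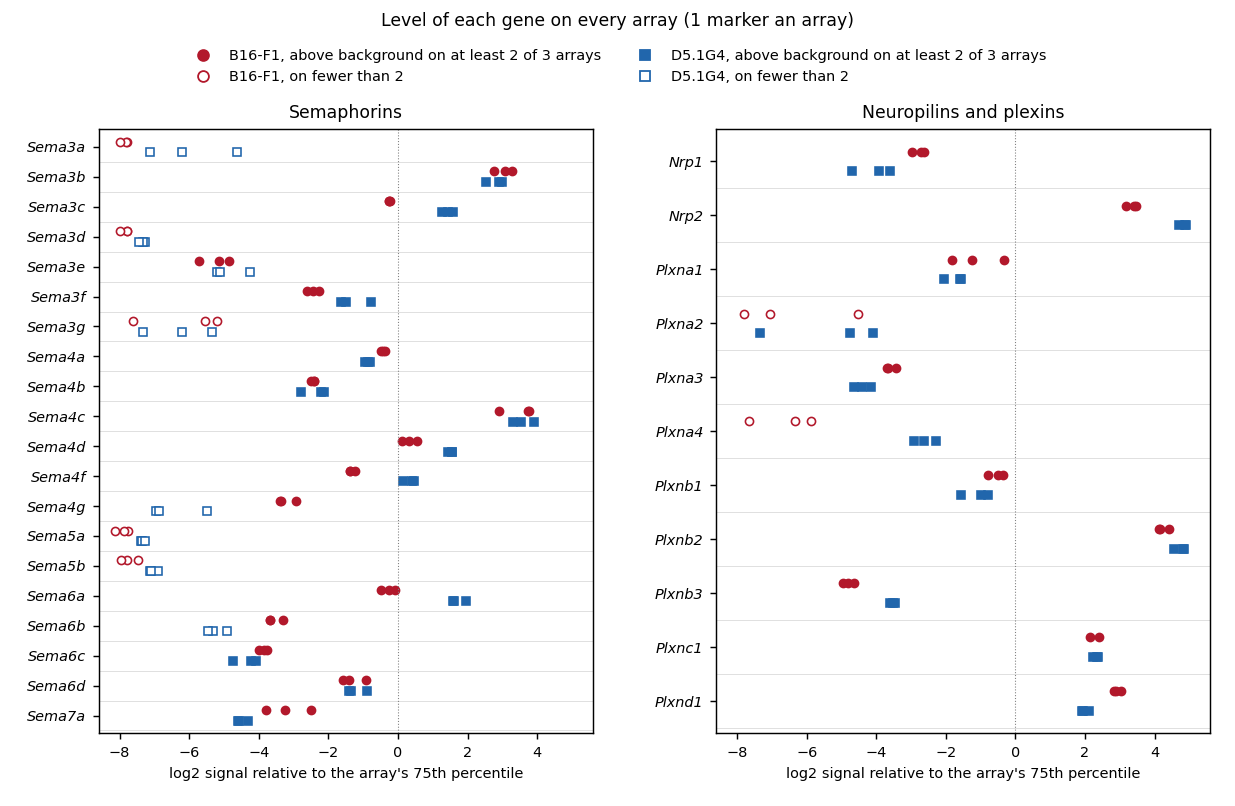
Level of each of the 31 genes on every array, as log2 signal relative to the array's 75th percentile (horizontal axis); B16-F1 arrays are circles and D5.1G4 arrays squares, filled where the gene was detected in the line. The symbols of Sema4g and Plxna4 lie far apart between the lines, while those of Sema4b, Sema4c, Sema6d and Plxnc1 overlap.

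The difference between the lines, B16-F1 minus D5.1G4, could be tested for 26 of the 31 genes, those that 3 or more of the 6 arrays showed well above background. A call needed a difference of 2-fold or more with an adjusted p no greater than 0.05. Of the 26, 12 (46.2%) were called, beside 15.2% of all 18442 features tested. Higher in B16-F1 were 4 genes (Sema4g, Sema6b, Sema7a and Nrp1), beside 6.28% of all features. Lower were 8 genes (Sema3c, Sema3f, Sema4d, Sema4f, Sema6a, Nrp2, Plxna4 and Plxnb3), beside 8.89% of all features. By the adjusted p alone 16 members passed, beside 34.9% of all features, and 4 of them (Sema4a, Plxna3, Plxnb2 and Plxnd1) were under the minimum fold. Plxna4 and Sema4g entered the test through the 3 arrays of the line in which they were bright, so a difference was built into their selection. Among the 20 genes well above background on all 6 arrays, 9 were called, beside 13.6% of all such features. The median difference over the 26 genes was -0.07, against -0.004 over all features, and it was the same with bounds for genes below background in a line. In 17 of the 26 genes (65.4%) every array of B16-F1 lay on the same side of every D5.1G4 array, beside 51.4% of all features tested.

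**Figure D2:**
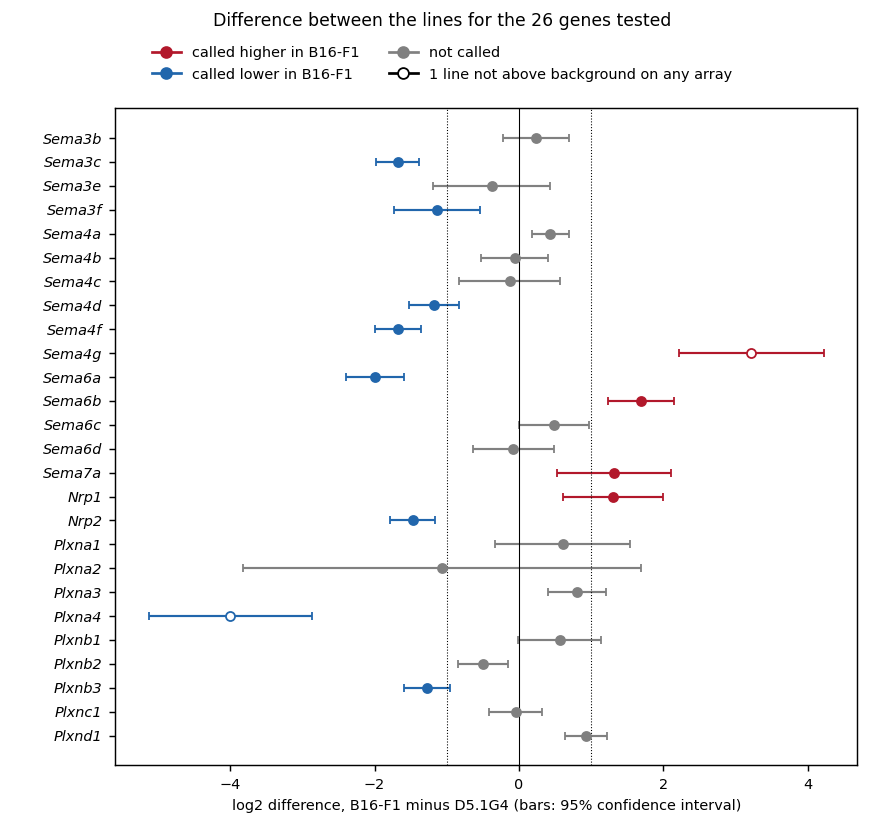
Log2 difference, B16-F1 minus D5.1G4, for the 26 genes tested, with bars for the 95% confidence interval from the limma fit; dotted lines mark a 2-fold difference. Of the 12 called genes, 4 lie to the right of the dotted lines and 8 to the left, and the interval of Plxna2 is the widest, from -3.82 to 1.70.

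Class 3 semaphorins, the secreted ligands, showed 2 genes lower in B16-F1, 2 not called and 3 untested. This count and those of the other classes below stand beside 8.89% of all features lower and 6.28% higher. Sema3c, which guides neural crest cells and acts through both neuropilins, had levels of -0.25, -0.23 and -0.25 in B16-F1 against 1.59, 1.27 and 1.45 in D5.1G4. The B16-F1 arrays lay almost on 1 value and all below the D5.1G4 arrays. It was 3.20-fold lower in B16-F1 (log2 difference -1.68, SE 0.12, limma adjusted p = 0.00031), and its second probe gave -1.28 (adjusted p = 0.0042). Sema3f, a repellent that acts through neuropilin 2 and is known to restrain tumour vessels, had levels of -2.43, -2.28 and -2.61 in B16-F1 against -1.63, -1.50 and -0.79 in D5.1G4. The arrays did not overlap, and D5.1G4 replicate 3 stood above the other 2 of its line. Sema3f was 2.19-fold lower (-1.13, SE 0.24, adjusted p = 0.0143). Leaving out B16-F1 replicate 3 ended the call (-1.05, adjusted p = 0.0535), as did leaving out D5.1G4 replicate 3 (-0.87, under the minimum fold), and within the shared scan the difference was -1.29 (adjusted p = 0.0772). Values within that scan rest on B16-F1 replicate 1 alone, which is assumed to vary like D5.1G4.

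Sema3b, another neuropilin 2 ligand and its neighbour on chromosome 9 with 3 protein-coding genes between them, averaged 3.04 ± 0.25 in B16-F1 and 2.81 ± 0.24 in D5.1G4 (SD, n = 3 each). These levels overlapped (difference 0.23, 95% confidence interval -0.23 to 0.69, adjusted p = 0.381), whereas Sema3f was lower in B16-F1. Sema3e, which binds plexin D1 without a neuropilin, was above background on all 3 B16-F1 arrays and 1 D5.1G4 array. Its levels averaged -5.23 ± 0.44 in B16-F1 and -4.85 ± 0.53 in D5.1G4 and overlapped, so the detection counts and the levels differ in order for this gene near background (-0.38, interval -1.19 to 0.43). On chromosome 5, Sema3d and Sema3a are next to each other among protein-coding genes, Sema3a and Sema3e have 3 such genes between them, and Sema3e and Sema3c have 15. Sema3d was above background on 0 arrays and Sema3a, the classical collapsing factor for growth cones, on 0 B16-F1 arrays and 1 D5.1G4 array. Among these genes Sema3c alone was well above background on all 6 arrays. Sema3g was above background on 1 B16-F1 array and 0 D5.1G4 arrays.

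Class 4 semaphorins, membrane ligands mainly of B plexins, held 1 gene that was higher in B16-F1 and 2 that were lower among 6 tested. Sema4g, a ligand of plexin B2, had levels of -2.93, -3.35 and -3.39 in B16-F1 against -5.49, -6.97 and -6.87 in D5.1G4. Every B16-F1 array was above background and 0 D5.1G4 arrays were. Its level in B16-F1 was at least 3.75-fold higher (measured means -3.22 and -6.44, adjusted p = 0.00218). The bound sets the D5.1G4 level, on each array, at the lowest signal well above background or the probe's own if that is higher.

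Sema4d, the ligand of plexin B1 that is also known as CD100, had levels of 0.56, 0.33 and 0.11 in B16-F1 against 1.54, 1.43 and 1.55 in D5.1G4. Sema4f, a brain-enriched class 4 member, had levels of -1.25, -1.38 and -1.39 in B16-F1 against 0.13, 0.47 and 0.39 in D5.1G4. In both genes every B16-F1 array lay below every D5.1G4 array, by a wider margin in Sema4f. Sema4d was 2.26-fold lower (-1.17, SE 0.14, adjusted p = 0.00184) and Sema4f 3.19-fold lower (-1.67, SE 0.13, adjusted p = 0.000389). Within the shared scan Sema4d differed by -0.93, under the minimum fold, and Sema4f by -1.68 (adjusted p = 0.0124).

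The other class 4 genes were not called. Sema4c, a ligand of plexin B2, averaged 3.47 ± 0.50 in B16-F1 and 3.59 ± 0.31 in D5.1G4, a difference of -0.13 with an interval of -0.83 to 0.57. Sema4b averaged -2.43 ± 0.05 in B16-F1 and -2.37 ± 0.35 in D5.1G4 (interval -0.52 to 0.40). Sema4a, which binds plexin D1 and B plexins and acts on T cells, averaged -0.43 ± 0.05 in B16-F1 and -0.87 ± 0.07 in D5.1G4. Its arrays did not overlap and the adjusted p was 0.021, but the difference of 0.44 was under the minimum fold. Both class 5 genes, Sema5a and Sema5b, which carry thrombospondin repeats, were above background on 0 arrays of either line.

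Class 6 semaphorins, transmembrane ligands of A plexins, split: Sema6a was lower in B16-F1 and Sema6b higher. Sema6a, a ligand of plexins A2 and A4, had levels of -0.09, -0.27 and -0.48 in B16-F1 against 1.58, 1.95 and 1.60 in D5.1G4. Sema6b, a ligand of plexin A4, had levels of -3.67, -3.68 and -3.31 in B16-F1 against -5.32, -4.93 and -5.46 in D5.1G4. The arrays overlapped in neither gene, and 1 of 3 D5.1G4 arrays was above background for Sema6b. Sema6a was 3.98-fold lower (-1.99, SE 0.16, adjusted p = 0.000448) and Sema6b 3.22-fold higher (1.69, SE 0.19, adjusted p = 0.00134). With normexp background correction the Sema6b difference was 0.69, under the minimum fold.

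Sema6c averaged -3.87 ± 0.11 in B16-F1 and -4.35 ± 0.36 in D5.1G4 and was not called (0.49, interval 0.01 to 0.97, adjusted p = 0.108). Sema6d averaged -1.30 ± 0.35 in B16-F1 and -1.22 ± 0.29 in D5.1G4 (-0.08, interval -0.64 to 0.48), and its second probe gave 0.07.

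Sema7a, the lipid-anchored class 7 semaphorin that binds plexin C1 and beta 1 integrins, had levels of -2.50, -3.25 and -3.80 in B16-F1 against -4.60, -4.57 and -4.32 in D5.1G4. The groups did not overlap, although the B16-F1 arrays spread widely, with replicate 1 highest and replicate 3 closest to D5.1G4. Sema7a was 2.49-fold higher (1.31, SE 0.33, adjusted p = 0.0239). Most fits that left out 1 array lost this call. Only without B16-F1 replicate 1 was the difference under the minimum fold (0.97). Without B16-F1 replicate 2 it was 1.35 (adjusted p = 0.0608). Without D5.1G4 replicates 1, 2 and 3 it was 1.26, 1.28 and 1.40 (adjusted p = 0.0658, 0.0745 and 0.0572). The difference of 1.95 within the shared scan rests on B16-F1 replicate 1, the highest array for this gene.

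The neuropilins, co-receptors with large extracellular parts and short intracellular tails, were detected on every array and moved in opposite directions. Nrp1, the co-receptor of semaphorin 3A that also presents vascular endothelial growth factor A to its receptors, had levels of -2.72, -2.98 and -2.64 in B16-F1 against -4.69, -3.94 and -3.61 in D5.1G4. Nrp2, the co-receptor of semaphorins 3B, 3F and 3G, had levels of 3.41, 3.46 and 3.16 in B16-F1 against 4.69, 4.90 and 4.86 in D5.1G4. Every Nrp1 value of B16-F1 was above, and every Nrp2 value below, those of D5.1G4. Nrp1 was 2.46-fold higher (1.30, SE 0.29, adjusted p = 0.0155) and Nrp2 2.78-fold lower (-1.47, SE 0.13, adjusted p = 0.000591). A second Nrp2 probe, designed to another transcript record of the gene, gave -2.42 (adjusted p = 0.000109). Nrp1 was no longer called with B16-F1 replicate 3 left out (adjusted p = 0.0564) or without D5.1G4 replicate 1 (0.996, under the minimum fold), and normexp gave 0.60.

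Within each array, log2 Nrp1 minus log2 Nrp2 was -6.13, -6.44 and -5.80 in B16-F1 and -9.38, -8.83 and -8.48 in D5.1G4. A factor common to all spots of an array cancels in this gap, whose level depends on the probes, so that it can be read between the lines and not between the genes. The gap shifted by 2.77, and no test is given because the genes were set against each other after their opposed values were seen.

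The upstream sequences of the neuropilins, of Sema4g and of Sema3c are shown because these genes carried the opposed changes of co-receptors and ligands. Each is the 250 bases before the start of the gene on its own strand, from RefSeq on GRCm38.p6, where 26 of the 31 genes have an entry. Capitals mark GGGCGG, the GC box, on either strand; overlapping matches run together. These windows were also searched on both strands for CACGTG and CATGTG, E-boxes of the kind that MITF binds, and for TGANTCA, the AP-1 site, and held none.
Nrp1, chr8:128358823-128359072, plus strand: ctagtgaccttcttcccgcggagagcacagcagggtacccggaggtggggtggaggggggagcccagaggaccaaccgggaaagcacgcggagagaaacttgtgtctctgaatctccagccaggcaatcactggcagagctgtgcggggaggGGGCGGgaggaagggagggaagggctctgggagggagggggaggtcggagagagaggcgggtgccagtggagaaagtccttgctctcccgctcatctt
Nrp2, chr1:62703067-62703316, plus strand: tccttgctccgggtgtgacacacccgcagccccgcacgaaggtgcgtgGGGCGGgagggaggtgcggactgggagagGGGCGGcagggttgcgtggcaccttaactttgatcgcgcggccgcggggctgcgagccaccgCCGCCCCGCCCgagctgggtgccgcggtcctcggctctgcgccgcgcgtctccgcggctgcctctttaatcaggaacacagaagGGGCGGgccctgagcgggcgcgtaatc
Sema4g, chr19:44989094-44989343, plus strand: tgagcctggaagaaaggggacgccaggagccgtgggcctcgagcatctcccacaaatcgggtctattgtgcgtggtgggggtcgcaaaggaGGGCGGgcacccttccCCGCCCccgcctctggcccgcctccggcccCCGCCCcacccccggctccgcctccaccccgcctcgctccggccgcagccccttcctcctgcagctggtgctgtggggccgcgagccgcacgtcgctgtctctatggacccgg
Sema3c, chr5:17574566-17574815, plus strand: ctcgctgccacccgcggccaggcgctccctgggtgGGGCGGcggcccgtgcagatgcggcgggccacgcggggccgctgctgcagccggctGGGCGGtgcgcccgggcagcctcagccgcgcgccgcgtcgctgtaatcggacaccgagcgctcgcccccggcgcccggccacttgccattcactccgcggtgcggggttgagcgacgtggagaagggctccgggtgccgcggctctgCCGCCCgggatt
The Nrp1 window held 1 GC box and the Nrp2 window 5, while those of Sema4g and Sema3c held 3 each. Of the 37 upstream windows of members, 27 held GGGCGG, beside 32.7% of all 32851 windows of the same length. These 37 windows belong to 26 genes, some of which have more than 1. The first E-box was in 2 of the members' windows, beside 6.02% of all windows. The second E-box was in 1 of them, beside 12.3% of all. The AP-1 site was in 3 of them, beside 6.75% of all. The G and C content was 64.4%, 72.4%, 73.2% and 78.4% in the windows of Nrp1, Nrp2, Sema4g and Sema3c, against a median of 52.4% over all windows. Most of the members' windows lay above that median, with a range from 40.8% (Sema3a) to 78.4% (Sema3c). The part of this content in the share with GC boxes was not tested. A match describes the letters of the window and is not evidence of binding.

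Among the 9 plexin genes, 2 were lower in B16-F1, 0 were called higher and 7 were not called, beside 8.89% of all features lower and 6.28% higher. Plxna4, a receptor of semaphorins 3A, 6A and 6B, had levels of -5.87, -7.65 and -6.33 in B16-F1 against -2.93, -2.30 and -2.64 in D5.1G4. All 3 D5.1G4 arrays were above background and 0 B16-F1 arrays were. It was at least 9.06-fold lower in B16-F1 (measured means -6.62 and -2.62, adjusted p = 0.00153). A second Plxna4 probe was above background on 0 arrays of either line, so a single probe carries this result, and normexp reduced the difference to -1.57 without ending the call.

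Plxnb3, a receptor of semaphorin 5A, had levels of -4.80, -4.63 and -4.97 in B16-F1 against -3.52, -3.61 and -3.45 in D5.1G4. Both lines varied little and did not overlap, and Plxnb3 was 2.42-fold lower (-1.27, SE 0.13, adjusted p = 0.000966). With normexp the difference was -0.61, under the minimum fold. Its known ligand gene Sema5a was not above background in either line.

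Plxnd1, Plxna3 and Plxnb2 had an adjusted p under 0.05 and a difference under 2-fold. Plxnd1, the receptor of semaphorin 3E, had levels of 2.89, 3.03 and 2.82 in B16-F1 against 1.91, 1.94 and 2.10 in D5.1G4. These values were well separated, and the difference of 0.93 (SE 0.12, adjusted p = 0.00205) lay just under the minimum fold. Its second probe gave 1.56 (adjusted p = 0.00114) and passed it, and so did the mean of both probes (1.24) and normexp (1.01). Plxna3, which pairs with neuropilin 2 for semaphorin 3F, differed by 0.80 (adjusted p = 0.012), and Plxnb2, the receptor of semaphorins 4C and 4G, by -0.49 (adjusted p = 0.0404). For Plxna3 and Plxnb2 the limma adjusted p was 0.0789 and 0.103 with quantile normalization. It was 0.0743 and 0.105 with the authors' values, and 0.241 and 0.139 with normexp.

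The remaining plexins overlapped between the lines. Plxna1, a common partner of neuropilin 1, averaged -1.13 ± 0.75 in B16-F1 and -1.74 ± 0.28 in D5.1G4 (0.60, interval -0.33 to 1.54). Plxnb1, the receptor of semaphorin 4D, averaged -0.55 ± 0.23 in B16-F1 and -1.11 ± 0.40 in D5.1G4 (0.56, interval -0.01 to 1.13, adjusted p = 0.116). Plxna2 lay near background, above it on 1 B16-F1 array and 2 D5.1G4 arrays, and the data leave its difference undetermined (-1.06, interval -3.82 to 1.70).

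Plxnc1, the semaphorin 7A receptor whose loss has been described in human melanoma, had levels of 2.41 and 2.15 on B16-F1 replicates 2 and 3 against 2.24, 2.38 and 2.35 in D5.1G4. The spot of B16-F1 replicate 1 was marked as an outlier by the scanner software and was left out, so the fit rests on 2 arrays of that line. The difference was -0.05 with an interval of -0.42 to 0.33, and it was 0.04 with that spot kept. A second probe, dimmer and measured on all 6 arrays, gave -0.31 (adjusted p = 0.113). A 2-fold difference in either direction lies outside the interval of the first probe.

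Ligands and receptors were set side by side in 29 pairs taken from textbook knowledge. Both partners were detected in 16 pairs in B16-F1 and in 16 pairs in D5.1G4, and 14 of these were common to both lines. Sema3e with Plxnd1 and Sema4g with Plxnb2 were complete in B16-F1 and not in D5.1G4. Sema6a with Plxna2 and Sema6a with Plxna4 were complete in D5.1G4 and not in B16-F1. The pairs with Sema3e and Plxna2 rest on detection counts near background and not on a difference in level. Sema3e averaged -5.23 in B16-F1 and -4.85 in D5.1G4, and Plxna2 exceeded background on 1 B16-F1 array and 2 D5.1G4 arrays. The levels of both genes overlapped between the lines. The other 11 pairs were complete in neither line, 10 of them because the ligand was not detected. In the eleventh, Sema6b with Plxna4, the ligand was detected in B16-F1 and the receptor in D5.1G4, each without its partner.

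**Figure D3:**
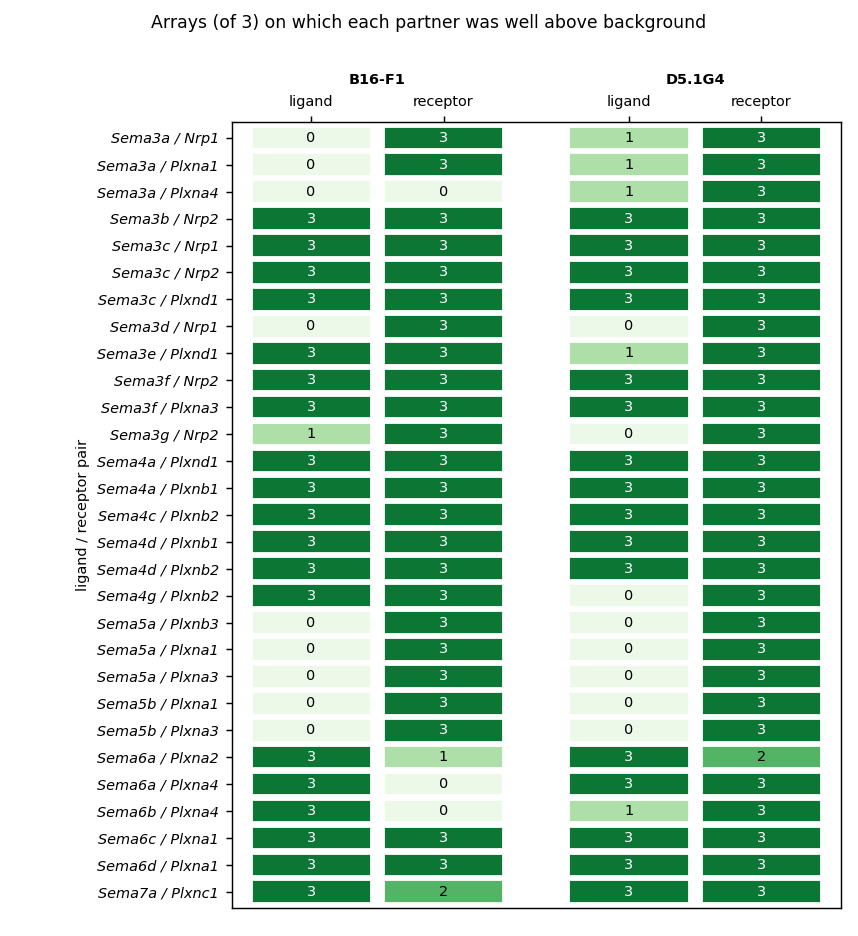
Number of arrays, of 3 in each line, on which the ligand and the receptor of each of 29 pairs were well above background; darker cells are higher counts. Plxnc1 shows 2 in B16-F1 because 1 spot was left out, and the receptor cells of Plxna4 hold 0 in B16-F1 and 3 in D5.1G4.

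Both partners were called in 5 pairs. In 3 of them both were lower in B16-F1: Sema3c with Nrp2 (-1.68 and -1.47), Sema3f with Nrp2 (-1.13 and -1.47) and Sema6a with Plxna4 (-1.99 and at least 9.06-fold lower). In the other 2 the partners moved apart: Sema3c was lower while Nrp1 was higher (-1.68 and 1.30), and Sema6b was higher while Plxna4 was lower. These pairs share members, so they are not independent of each other. For Sema7a and Plxnc1 the ligand was called (1.31) and the receptor was not (-0.05). For Sema4d and Plxnb1 the ligand was lower (-1.17) and the receptor was not called (0.56).

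Genes that work with semaphorin receptors were counted from 5 lists of 74 genes, of which 62 were tested. Of these 12 were called, beside 15.2% of all features. In B16-F1 7 were higher and 5 lower, beside 6.28% and 8.89% of all features, and the counts of each list below stand beside the same shares. Among 10 tested co-receptors and alternative receptors, 4 were higher and 1 lower. Nrcam, an adhesion molecule that complexes with neuropilins, rose by 1.37 (SE 0.14, adjusted p = 0.001). Itgb1, the beta chain of the integrin that binds semaphorin 7A, rose by 1.41 (SE 0.28, adjusted p = 0.0111), and Itgav, an integrin alpha chain, by 1.19 (SE 0.23, adjusted p = 0.0106). Cd72, a lymphocyte receptor of semaphorin 4D, fell by 2.16 (SE 0.36, adjusted p = 0.00547). With its second probe 0 B16-F1 arrays and 3 D5.1G4 arrays exceeded background, so its difference is only a bound and is not given. The second Itgb1 probe gave 2.02 (adjusted p = 0.149), with 1 D5.1G4 array above background, and the second Itgav probe gave -0.05. With the mean over a gene's probes in place of the brightest, neither integrin gene was called (adjusted p = 0.0757 for Itgb1, a difference of 0.57 for Itgav). With scan as a block, where B16-F1 is represented by replicate 1 alone, the difference was 1.24 for Itgb1 and 1.06 for Itgav. Without B16-F1 replicate 3 Itgav was under the minimum fold (0.97).

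Among 25 tested intracellular mediators 2 were higher and 2 lower. Dpysl3 and Crmp1, collapsin response mediator proteins that bind tubulin and relay semaphorin 3A signals, fell by 2.01 (SE 0.12, adjusted p = 0.000128) and 1.21 (SE 0.16, adjusted p = 0.00242). Their relatives Dpysl2 and Dpysl5 were not called (-0.03 and -0.50). The second Dpysl3 probe gave -3.59. Fes, a tyrosine kinase tied to plexin A1, rose by 1.81 (adjusted p = 0.0394), a call lost without B16-F1 replicate 2 (adjusted p = 0.107) or 3 (0.12) and without D5.1G4 replicate 1 (0.088), 2 (0.118) or 3 (0.0591), with 0.72 in the shared scan. Fscn1, the actin-bundling protein fascin, was above background on 3 B16-F1 arrays and 0 D5.1G4 arrays, so it entered the test through the line in which it was bright. Its measured means were -4.27 and -5.51 (adjusted p = 0.0105), but the bound is at least 1.81-fold higher, under the fold a call needs. With scan as a block, where B16-F1 is represented by replicate 1 alone, the measured difference was 1.075.

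Of 13 small GTPases 0 were higher and 2 lower. Rnd3, a small GTPase known to loosen actin stress fibres, fell by 1.42 (adjusted p = 0.0474), but the call held only without D5.1G4 replicate 2 among the 6 fits that left out 1 array, and the shared scan gave -0.95. The adjusted p was 0.0759, 0.116 and 0.115 without B16-F1 replicates 1, 2 and 3 and 0.079 and 0.13 without D5.1G4 replicates 1 and 3. Mras, a substrate of plexin GTPase-activating domains, fell by 1.31 (adjusted p = 0.00147), while its other probes gave 0.50 and -0.35. Of 6 tested sheddases and convertases, which release or mature semaphorins, 0 were called in either direction. Of 8 other neuropilin ligands tested, Tgfb1, a growth factor that neuropilins can bind, was at least 6.30-fold higher (adjusted p = 2.23e-05). It was above background on 3 B16-F1 arrays and 0 D5.1G4 arrays, so it too entered the test through B16-F1.

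**Figure D4:**
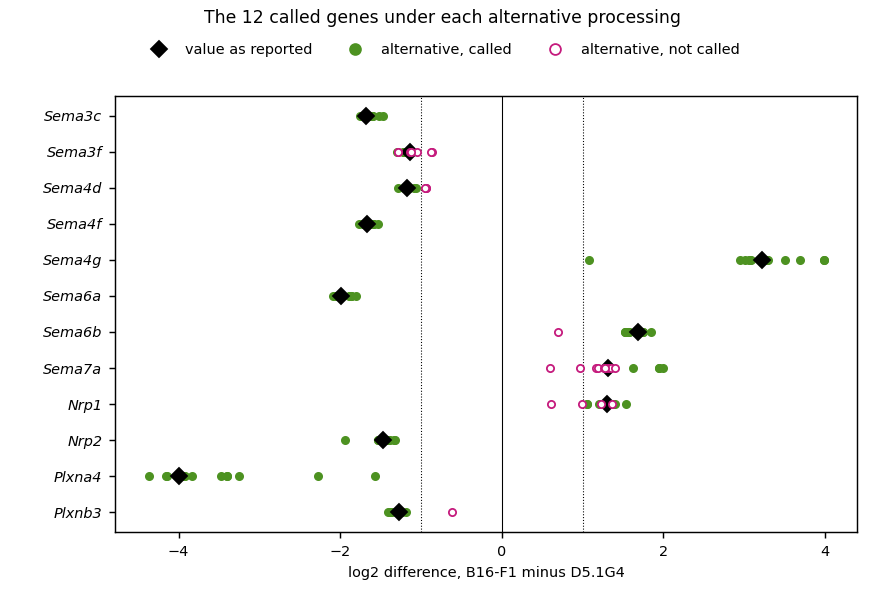
Log2 difference, B16-F1 minus D5.1G4, of the 12 called genes as reported (diamonds) and under each alternative processing (circles, open where the gene was no longer called); dotted lines mark a 2-fold difference. All circles lie on the same side of 0 as their diamond, and Sema3c, Sema4f, Sema4g, Sema6a, Nrp2 and Plxna4 have no open circle.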

How the data were processed

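Per the file headers, the authors' deposited scanner files hold a linear intensity per spot from Agilent Feature Extraction 11.0.1.1 (1 colour, Cy3), with background subtracted and trends within the array removed, and flags of 0 or 1; the submitters' processing notes name the same software. The authors' deposited value table is on a log2 scale; its normalization is not stated in any label or header, and it served as an alternative. The log2 intensity minus each array's 75th percentile was used, spots marked non-uniform or outlying (0.674% to 1.58% of an array) were left out, and no spot was saturated. Accessions were matched to the RefSeq gene table of GRCm38.p6, which named 69.1% of probes; all 31 members had a probe. The array's annotation is on mm9, so no coordinates of probes are given. The brightest probe by mean over 6 arrays stood for a gene, and 8 members had more than 1. Features well above background on at least 3 arrays were fitted with limma 3.58.1 in R 4.3.3 (lmFit, eBayes, line as the only term), with Benjamini-Hochberg adjustment over 18442 features; every adjusted p, 2-sided, is from this fit unless another is named. The fit was tested on simulated data. All members are named; of each partner list, up to 4 called genes with the largest difference are. The members, lists and pairs were chosen with earlier results of these data known. The number of arrays limits precision. Alternatives were quantile normalization, normexp (on median signals, since the files hold no mean signal), the authors' values, other filters and probe rules, an unadjusted p, scan (in place of slide) and replicate blocks, trend with robust, and leaving out arrays. Same-numbered arrays did not deviate together (r = -0.387, -0.028 and -0.304), and the numbers were not taken as pairs in the main fit. With 3 arrays a line this check cannot exclude that same-numbered samples were prepared together.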

Additional observations from a re-analysis of the deposited data

How the results depend on the processing

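Under up to 19 alternatives no called member changed sign. Sema3c, Sema4f, Sema4g, Sema6a, Nrp2 and Plxna4 were called under each alternative that could test them, whereas Sema7a lost its call in 9, Sema3f in 7, Nrp1 in 4, Sema4d in 3 and Sema6b and Plxnb3 in 1 each. These tallies include fits whose difference rests on B16-F1 replicate 1 alone. Such fits are scan as a block, the shared scan, and leaving out the scan of 2 B16-F1 arrays. The block and the shared scan give the same difference. All losses of Sema4d came from such fits. Of the called genes, Sema4g, Sema6b and Plxna4 could not be fitted when every array had to be above background. Of 14 members not called, Plxnd1 was called under 2 alternatives. The count of members called was 10 to 11 without any 1 array and 8 with normexp. With scan as a block the difference comes from the shared scan alone, in which B16-F1 has replicate 1 only. Leaving out the scan of 2 B16-F1 arrays, an alternative chosen after seeing the data, also leaves B16-F1 with replicate 1 only. No count of genes called is given for either alternative. All features called numbered 2530 to 3375 without any 1 array and 1644 with normexp, against 2799. Partner genes called numbered 9 to 13 without any 1 array, 7 with the mean over all probes of a gene and 12 as reported. With the replicate number as a block 10 members, 10 partner genes and 2583 features were called. Sema7a was lost with quantile normalization (adjusted p = 0.0699) and with the authors' values (0.0679). Within the scan of both lines, where B16-F1 has replicate 1 only and is assumed to vary like D5.1G4, the median over all features was -0.148. Without a filter on dim features that median was -0.169. The causes of these changes were not tested. Genes near background, such as Plxna2, Sema3e, Sema3g and Sema3a, are limited by signal.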
